A study of Rattus norvegicus with 3 samples.

Results

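TGF-beta and BMP signalling was examined in RNA of the spinal cord supernatant through 49 genes, chosen by name and grouped by role into 13 ligands, 12 receptors, 8 SMADs, 7 secreted antagonists, 4 latent TGF-beta binding proteins and 5 regulators of the receptors and SMADs. Of the 49 genes, 41 have an entry under their symbol in a table of 12771 entries, and the other 8 (BMP5, GDF10, TGFBR3, ACVR2B, NOG, GREM1, FST and CHRDL1) have none under their symbol or a rat synonym. Female Sprague Dawley rats, 3 months old, either had only the vertebral lamina at T9 removed (No-SCI) or were then contused there with 250 kdyne (SCI). About 2 mm of cord at T8, just rostral to the injury, was taken 24 h later, digested at 6°C with a protease active in the cold, and spun so that RNA of the supernatant, taken by the study as enriched in axonal RNA, could be sequenced without the pelleted cells. The labels give 2 No-SCI libraries and 1 SCI library, while the methods state 2 animals per condition. The authors' table holds 1 FPKM value per group for each entry, that is fragments scaled by transcript length and by mapped reads. Values of single libraries were not part of it, so no spread between animals, no SD and no test could be given. Every difference given has no replicate check, the depth behind each value is unknown, and "higher" and "lower" describe the SCI value relative to the No-SCI value.

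Ligands of this family are secreted as dimers, and TGF-beta is held in a latent complex until it is released. A ligand brings together type I and type II serine/threonine kinase receptors, and the activated type I receptor phosphorylates receptor SMADs, SMAD2 and SMAD3 for TGF-beta and activins and SMAD1, SMAD5 and SMAD9 for BMPs. These enter the nucleus with SMAD4, while SMAD6 and SMAD7 are inhibitory SMADs that feed back on the receptors. After injury of the cord the family is known for its part in astrocyte reactivity, in the deposition of fibrous matrix and in the lineage choices of glial precursors.

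The members listed higher after SCI by the largest factors were BMP7, FSTL1, SMAD6, BMP6 and BMP4, and the type I receptors for TGF-beta and activin were among those listed lower. Of the 41 listed members, 9 were at least 2-fold higher after SCI (BMP7, FSTL1, SMAD6, BMP6, BMP4, LTBP2, SMURF1, FSTL3 and ENG), which is 22.0%, and over all entries the same share was 7.96%. At least 2-fold lower were 3 members (ACVR1B, TGFBR1 and LTBP3), or 7.32%, against 12.1% of all entries. The remaining 29 lay within 2-fold. As log2 of SCI over No-SCI, the median ratio was 0.09 over the listed members and −0.12 over all entries. Above 0 were 22 of the 41 members, beside 43.7% of all entries. The members nearest to the 2-fold limit were ENG and FSTL3 just inside it, at 2.06-fold and 2.13-fold, and NBL1 and ACVRL1 just outside it, at 1.92-fold and 1.90-fold. On the lower side LTBP3 lay just inside, with a No-SCI value 2.07 times that of SCI, and SMAD5 just outside, at 1.81 times. In these bulk libraries of a supernatant, fewer cells of a type, less RNA per cell and less of it released into the supernatant cannot be told apart.

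**Figure D1:**
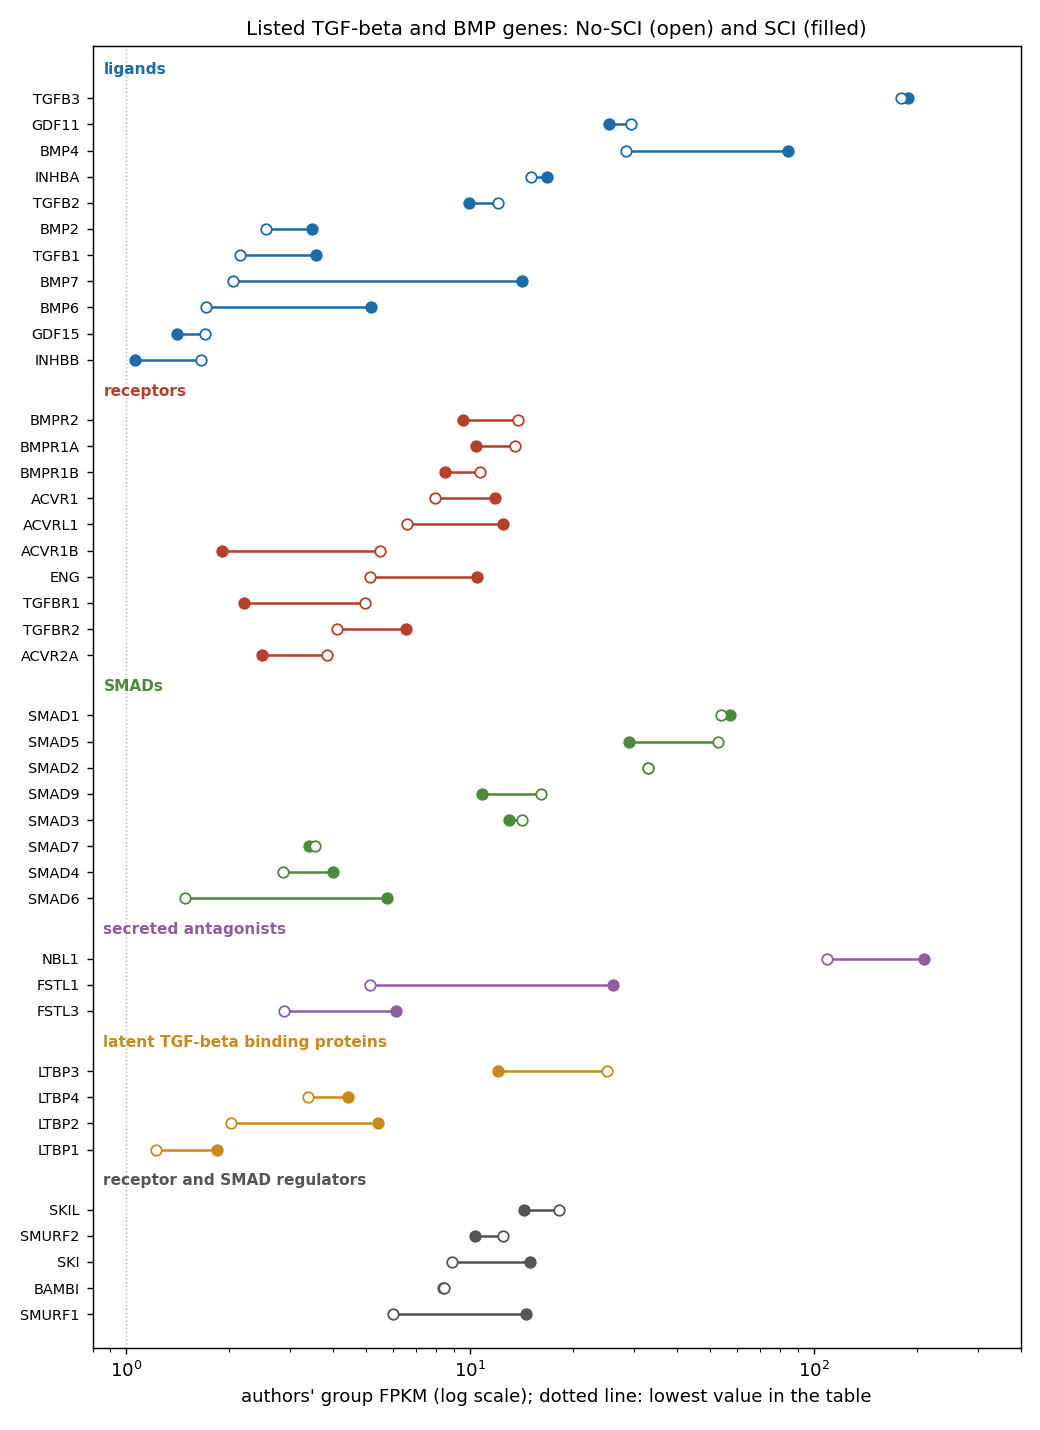
The authors' FPKM of each of the 41 listed members on a log axis, grouped by role, with an open circle for No-SCI and a filled circle for SCI, 1 value per group and no error bar because no replicate values were analysed here. The widest spans to the right are those of BMP7 (2.04 to 14.2), FSTL1 (5.15 to 26.0) and SMAD6 (1.48 to 5.75), and the widest span to the left is that of ACVR1B (5.48 to 1.90).

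Most of the members that were higher after SCI started at low levels. The 9 members at least 2-fold higher lay at 2.88 FPKM in the No-SCI group (median), and the other listed members at 9.78 FPKM. The same held over the whole table, where entries at least 2-fold higher had a No-SCI median of 5.63 FPKM and all entries one of 17.2 FPKM. Among the 24 members below 10 FPKM in No-SCI, 8 were at least 2-fold higher (33.3%), and among all entries below 10 FPKM in No-SCI the share was 14.2%. BMP4, at 28.4 FPKM, is the 1 member of the 9 above that level. Low values in this table need care, because no value lies below 1, and 87.5% of the values between 1.1 and 2 carry 6 or more decimals, compared with 40.2% of those between 2 and 3. A constant of 1 added to values of 6 significant digits would leave such a step, and it would pull the ratios of low genes toward 1. With 1 subtracted from both values, 12 members were at least 2-fold higher and 4 at least 2-fold lower, beside 10.4% and 16.2% of the entries. TGFB1, ACVRL1 and LTBP1 joined the higher members and INHBB joined the lower ones, and all 12 members named above remained on their side of the 2-fold limit.

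Promoter windows of 2 ligands listed higher and of the 2 type I receptors listed lower are shown as sequence context. They are not those of the members with the largest factors. For BMP7 and SMAD6 no window was at hand, and that of FSTL1 is not shown. Each is the 250 bases before the annotated start in RefSeq of the GRCr8 rat assembly, written 5′ to 3′ on the gene's strand. Capitals mark GGCGCC, a GC-rich motif bound by SMADs, and the 6 letters of a SMAD box, CAGACA (on the other strand: TGTCTG). Both motifs were searched on both strands. The windows lie at chr15:22101934-22102183 (BMP4, minus strand), chr17:26675262-26675511 (BMP6, minus strand), chr5:66449148-66449397 (TGFBR1, plus strand) and chr7:134164751-134165000 (ACVR1B, plus strand).
BMP4: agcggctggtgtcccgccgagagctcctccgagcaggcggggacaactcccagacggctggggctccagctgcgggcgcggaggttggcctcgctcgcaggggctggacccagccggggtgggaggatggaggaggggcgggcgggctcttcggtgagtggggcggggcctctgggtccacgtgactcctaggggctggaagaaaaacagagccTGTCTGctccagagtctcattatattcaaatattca
BMP6: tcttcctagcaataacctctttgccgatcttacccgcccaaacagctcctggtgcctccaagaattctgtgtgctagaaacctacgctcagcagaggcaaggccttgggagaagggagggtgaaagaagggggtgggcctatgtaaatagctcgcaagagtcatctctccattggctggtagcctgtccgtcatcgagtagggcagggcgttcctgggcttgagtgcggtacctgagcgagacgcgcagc
TGFBR1: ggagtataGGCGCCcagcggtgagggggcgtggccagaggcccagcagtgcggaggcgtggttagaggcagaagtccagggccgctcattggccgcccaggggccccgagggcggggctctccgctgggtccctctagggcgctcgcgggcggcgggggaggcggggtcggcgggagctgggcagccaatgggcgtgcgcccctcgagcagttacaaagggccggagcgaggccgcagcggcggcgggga
ACVR1B: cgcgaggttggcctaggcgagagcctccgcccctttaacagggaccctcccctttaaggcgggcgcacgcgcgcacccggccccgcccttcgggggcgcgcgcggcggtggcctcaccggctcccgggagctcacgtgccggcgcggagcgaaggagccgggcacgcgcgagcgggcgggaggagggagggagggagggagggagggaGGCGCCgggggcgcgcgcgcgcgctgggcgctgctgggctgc
The windows of TGFBR1 and ACVR1B each hold 1 GGCGCC and that of BMP4 holds 1 CAGACA or its complement, while the window of BMP6 holds neither string of letters. Of 33469 rat promoter windows of this length, 8.69% hold GGCGCC and 17.2% hold CAGACA on either strand. For 34 of the 41 listed members a window was at hand, 36 windows in all, of which 10 hold GGCGCC and 3 hold CAGACA. Both windows of SMAD2 are among those 10. GGCGCC consists of G and C only, and these 10 windows have 70 to 86.8% G and C. The median over all windows was 51.2%, and the shares were not adjusted for this. A match of letters is a description and says nothing on binding of a SMAD. The expression values themselves were made on the rn6 assembly.

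Among the ligands, TGFB3 was by far the most abundant transcript, and BMP4, BMP6 and BMP7 were the ligands at least 2-fold apart between the groups as deposited. TGFB3, 1 of the 3 TGF-beta isoforms, had 180.2 FPKM in No-SCI and 188 FPKM in SCI, a log2 ratio of 0.06. It made up 65.1% of the summed ligand FPKM in No-SCI and 53.3% in SCI. TGFB2, which like the other isoforms signals through TGFBR2 and TGFBR1, had 12.1 FPKM in No-SCI and 9.94 FPKM in SCI. TGFB1, the isoform best known from wound healing and macrophages, was near the floor of the table, with 2.15 FPKM in No-SCI and 3.56 FPKM in SCI. Its log2 ratio was 0.73 as deposited and 1.16 with 1 subtracted. TGFB3 was thus listed at 84.0 times the level of TGFB1 in No-SCI and 52.9 times in SCI, or 156 and 73.1 times with 1 subtracted. After 1 is subtracted, the values of TGFB3 still carry more than 6 significant digits, as do those of 24 of the 41 members and 49.8% of all symbols. A value summed over several transcripts would look so, and levels of different genes then depend on how many were summed.

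All 4 listed BMP ligands were higher in SCI. BMP4, a BMP of the BMP2/4 subgroup, had 28.4 FPKM in No-SCI and 84.3 FPKM in SCI, which is 2.97-fold. It moved from the 7th to the 3rd place among the listed members. BMP7, known for its role in kidney and skeletal development, had 2.04 FPKM in No-SCI and 14.2 FPKM in SCI, a log2 ratio of 2.80 and the largest of any listed member. BMP6, of the same subgroup as BMP7 and a regulator of iron through hepcidin, had 1.71 FPKM in No-SCI and 5.15 FPKM in SCI, which is 3.02-fold. The closely related BMP2 had 2.55 FPKM in No-SCI and 3.47 FPKM in SCI, 1.36-fold and within the 2-fold limit. Summed over these 4 genes the BMP level was 34.7 FPKM in No-SCI and 107 FPKM in SCI, 3.09-fold. The sum of the 3 TGF-beta isoforms was 194 FPKM and 202 FPKM, 1.04-fold. Most of the first sum was BMP4 and most of the second was TGFB3, so each follows mainly 1 gene. With 1 subtracted the log2 ratios of BMP7 and BMP6 were 3.66 and 2.55, and that of BMP4 was 1.60.

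The activin subunits and GDFs lay within 2-fold as deposited. INHBA, the subunit of activin A, had 15.1 FPKM in No-SCI and 16.7 FPKM in SCI. INHBB, the subunit of activin B, had 1.65 FPKM and 1.06 FPKM, the lowest SCI value of the members. The log2 ratio of INHBB was −0.63 as deposited and −3.38 with 1 subtracted, and its size therefore depends on how values next to 1 are read. GDF11, a ligand close to myostatin, had 29.4 FPKM in No-SCI and 25.4 FPKM in SCI. GDF15, a cytokine known for its induction by cell stress, was listed at 1.69 FPKM in No-SCI and 1.41 FPKM in SCI. No member of this group was therefore listed 2-fold higher at 24 h.

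Receptors were split, with 4 of 10 higher and 6 lower, and their summed level was nearly the same in both groups, 76.1 FPKM in No-SCI and 76.4 FPKM in SCI. TGFBR1, the type I receptor for TGF-beta, had 4.96 FPKM in No-SCI and 2.21 FPKM in SCI, a log2 ratio of −1.17. ACVR1B, the type I receptor for activin, had 5.48 FPKM in No-SCI and 1.90 FPKM in SCI, a log2 ratio of −1.52 and the lowest among the listed members. With 1 subtracted these ratios were −1.71 and −2.31. Both receptors phosphorylate SMAD2 and SMAD3. The type II receptor of TGF-beta, TGFBR2, was listed the other way, with 4.12 FPKM in No-SCI and 6.51 FPKM in SCI, a log2 ratio of 0.66.

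The receptors of the BMP branch were within 2-fold and mostly lower. BMPR1A and BMPR1B, type I receptors for BMPs, had 13.6 and 10.7 FPKM in No-SCI and 10.4 and 8.48 FPKM in SCI. BMPR2, their type II partner, had 13.8 FPKM in No-SCI and 9.57 FPKM in SCI. ACVR2A, a type II receptor shared by activins and BMPs, had 3.83 FPKM in No-SCI and 2.49 FPKM in SCI. These 4 receptors had log2 ratios from −0.62 to −0.34, and all 4 were lower. ACVR1, a type I receptor that BMP6 and BMP7 can use, had 7.92 FPKM in No-SCI and 11.9 FPKM in SCI, which is 1.5-fold.

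ACVRL1 and ENG, receptor and co-receptor of the endothelium, were higher together. ACVRL1, also called ALK1, had 6.56 FPKM in No-SCI and 12.5 FPKM in SCI, and ENG, endoglin, had 5.12 FPKM in No-SCI and 10.5 FPKM in SCI. Their log2 ratios were 0.93 and 1.04. A list of 12 endothelial markers has 9 entries, whose summed level was 52.1 FPKM in No-SCI and 60.7 FPKM in SCI with a median log2 ratio of 0.06. Of these 9 genes 5 were higher and 4 lower. CDH5, named after its values were seen, was the 1 gene at least 2-fold higher (11.1%, near the 7.96% of all entries). PECAM1, TEK and TIE1 have no entry. The part of endothelial RNA in the values of ACVRL1 and ENG was not tested.

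**Figure D2:**
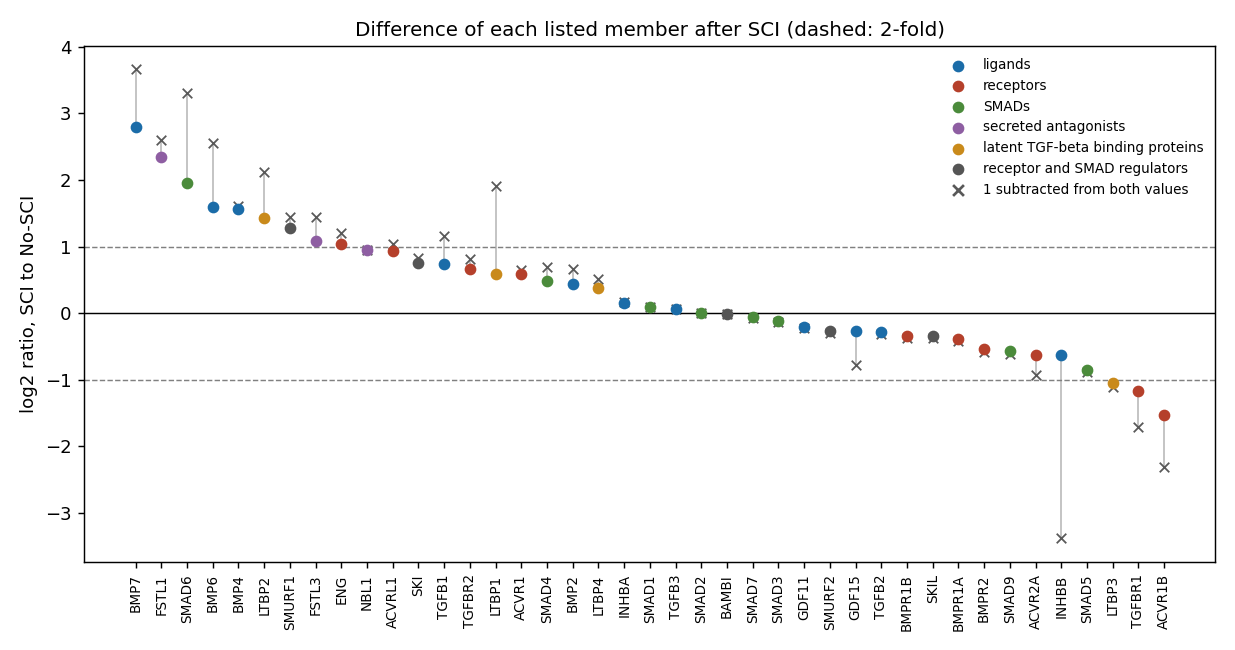
Log2 of SCI over No-SCI for each listed member, ordered by size and coloured by role, with crosses for the ratio after 1 was subtracted from both values and dashed lines at 2-fold. The 9 points above the upper line run from 1.04 for ENG to 2.80 for BMP7, the 3 below the lower line from −1.05 for LTBP3 to −1.52 for ACVR1B, and the longest distance between a point and its cross is that of INHBB.

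SMAD1, SMAD5 and SMAD2 were the most abundant SMADs in both groups. SMAD1 had 53.6 FPKM in No-SCI and 57.0 FPKM in SCI, and SMAD5 had 52.8 FPKM and 29.1 FPKM. SMAD9, the third of the BMP branch, had 16.1 FPKM in No-SCI and 10.9 FPKM in SCI. The sum of these 3 was 122.5 FPKM in No-SCI and 97.0 FPKM in SCI, or 0.792 times, although the summed BMP ligands, mostly BMP4, were higher. SMAD2 had 33.0 FPKM in each group, and SMAD3 had 14.2 FPKM in No-SCI and 13.0 FPKM in SCI. SMAD4, the partner that all receptor SMADs share, had 2.86 FPKM in No-SCI and 3.99 FPKM in SCI, lower than its partners in both groups.

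Of the inhibitory SMADs, SMAD6 was at least 2-fold higher and SMAD7 was not. SMAD6, which acts mainly on BMP receptors and is itself known as a BMP target, had 1.48 FPKM in No-SCI and 5.75 FPKM in SCI, a log2 ratio of 1.96. With 1 subtracted the log2 ratio of SMAD6 was 3.30. SMAD7, which also acts on the TGF-beta receptor and is known as a TGF-beta target, had 3.54 FPKM in No-SCI and 3.42 FPKM in SCI, a log2 ratio of −0.05 whose sign turned under each scaling of the table but that to the same total. SMAD7 was 2.39 times as abundant as SMAD6 in No-SCI, and SMAD6 was 1.68 times as abundant as SMAD7 in SCI. With 1 subtracted these ratios were 5.27 and 1.97.

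Of the secreted antagonists, 3 of 7 are listed and all 3 were higher. NBL1, also called DAN, which binds BMPs, had 109 FPKM in No-SCI and 210.3 FPKM in SCI, and was the most abundant member after SCI. FSTL1, a secreted glycoprotein related to follistatin, had 5.15 FPKM in No-SCI and 26.0 FPKM in SCI, 5.06-fold and the second largest ratio of the members. FSTL3, which binds activins and myostatin, had 2.88 FPKM in No-SCI and 6.12 FPKM in SCI. NOG, GREM1, FST and CHRDL1, the best known direct antagonists of BMPs and activins among the 7, are those without an entry. Together the listed 3 had 117 FPKM in No-SCI and 242 FPKM in SCI.

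Latent TGF-beta binding proteins, which tie the latent complex to matrix fibres, differed in direction. LTBP2, a matrix protein that does not bind latent TGF-beta itself, had 2.02 FPKM in No-SCI and 5.40 FPKM in SCI, which is 2.68-fold as deposited and 4.33-fold with 1 subtracted. LTBP3 had 25.04 FPKM in No-SCI and 12.1 FPKM in SCI, a log2 ratio of −1.05 that no longer reached 2-fold after median centring or upper quartile scaling. LTBP1 was near the floor of the table at 1.22 FPKM in No-SCI and 1.84 FPKM in SCI, and LTBP4 had 3.39 FPKM in No-SCI and 4.42 FPKM in SCI. LTBP1 was 1.5-fold higher as deposited and 3.76-fold higher with 1 subtracted.

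Among the regulators of receptors and SMADs, the ubiquitin ligases differed from each other. SMURF1, which marks BMP-branch SMADs and receptors for degradation, had 5.997 FPKM in No-SCI and 14.6 FPKM in SCI, which is 2.43-fold. SMURF2, its close relative, had 12.5 FPKM in No-SCI and 10.4 FPKM in SCI. The nuclear co-repressors SKI and SKIL had 8.86 and 18.2 FPKM in No-SCI and 14.9 and 14.4 FPKM in SCI, so that SKIL was the more abundant in No-SCI only. BAMBI, a pseudoreceptor without a kinase domain, had 8.41 FPKM in No-SCI and 8.37 FPKM in SCI.

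By role, the median log2 ratios were 0.15 for the 11 listed ligands, −0.36 for the 10 receptors, −0.03 for the 8 SMADs, 1.09 for the 3 antagonists, 0.49 for the 4 binding proteins and −0.0057 for the 5 regulators. Centring the median of all entries at 0 adds 0.12 to each of these and turns the sign of the SMADs, to 0.09, and of the regulators, to 0.11. Scaling to the same upper quartile adds 0.10 and turns the same signs. The antagonists and ligands remained above 0 and the receptors below 0 under each scaling.

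Genes known as targets of the pathway are not members and are described as a separate list, also chosen with earlier results known. Of 19 TGF-beta target genes 18 are listed, all 18 with a higher value in SCI, beside 43.7% of all entries. At least 2-fold higher were 13 of the 18 (72.2%), next to the 7.96% of all entries. The median log2 ratio of the 18 was 1.28. CCN2, a matricellular protein also called CTGF, had 2.34 FPKM in No-SCI and 23.0 FPKM in SCI, 9.85-fold. TIMP1, an inhibitor of metalloproteinases, had 208 FPKM in No-SCI and 780.2 FPKM in SCI, and SNAI1, a transcription factor of mesenchymal transition, had 4.85 FPKM and 22.4 FPKM. SPHK1, LOX, JUNB, CDKN1A and TGFBI had log2 ratios between 1.18 and 1.55. Many of these genes also respond to other injury signals, and no value here ties them to TGF-beta.

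Of 12 BMP target genes 9 are listed, and 2 of them were at least 2-fold higher (22.2%, against 7.96% of all entries), with a median log2 ratio of 0.03. These were ID1 and ATOH8, the latter at 1.46 FPKM in No-SCI and 4.09 FPKM in SCI and named after its values were seen. ID1, an inhibitor of basic helix-loop-helix factors and the best known direct BMP target, had 90.3 FPKM in No-SCI and 415 FPKM in SCI, 4.59-fold. The other ID genes, named after their values were seen, divided. ID3 had 152 FPKM in No-SCI and 303 FPKM in SCI, 1.99-fold and just outside the limit. ID2 had 69.7 FPKM and 54.6 FPKM, and ID4 had 16.3 FPKM and 11.4 FPKM. With 1 subtracted 3 of the 9 listed BMP targets, ID3 among them, were at least 2-fold higher, beside 10.4% of the entries. ID1 and ID3 were thus higher and ID2 and ID4 lower in SCI.

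Markers of meningeal fibroblasts, cells that express several of these members, were also higher. This list, too, was chosen with earlier results of these data known. Of 15 such markers 13 are listed and all 13 were at least 2-fold higher in SCI (100%, against 7.96% of all entries). The median log2 ratio of the 13 was 2.93. Their summed level was 157 FPKM in No-SCI and 1856 FPKM in SCI, 11.8-fold, with MGP, CRABP2 and DCN as the most abundant. SLC47A1 and TBX18 have no entry. The TGF-beta target list shares COL1A1, COL1A2 and COL3A1 with the fibroblast list. Without these and the 2 targets on the mural list 10 of 13 targets were at least 2-fold higher (76.9%, against 7.96% of all entries). The part of fibroblast RNA in the values of BMP4, BMP7, FSTL1, LTBP2, NBL1 and the target genes was not tested.

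Markers of several other cell types differed too, while other lists were split. The 11 listed oligodendrocyte markers, led by MOBP and BCAS1, were all lower in SCI, with a summed level of 88476 FPKM in No-SCI and 48316 FPKM in SCI, and MBP has no entry. This sum exceeded that of the neuronal markers in both groups, but most of it was MOBP and BCAS1. MOBP had 44200 FPKM in No-SCI and 27648 FPKM in SCI, and BCAS1 had 36068.5 and 18311 FPKM. The comparison of the 2 sums therefore rests on these 2 genes. Of the 8 listed astrocyte markers 6 were at least 2-fold lower (75%, against 12.1% of all entries), and GFAP, AQP4, S100B, SLC1A3 and ALDOC have no entry. The astrocyte sum was 14090 FPKM in No-SCI and 8971 FPKM in SCI. Most of it was NDRG2 (8001 and 3228 FPKM) and GLUL (5858 and 5624 FPKM), of which GLUL hardly differed. The 13 listed neuronal markers, led by MAP2, MAPT and GAP43, summed to 6282 FPKM in No-SCI and 3833 FPKM in SCI. Of these 13 markers 6 were at least 2-fold lower (46.2%, against the same 12.1%), and SNAP25 and NEFM have no entry. Of the 15 listed microglia and macrophage markers 10 were higher and 5 lower, with a median log2 ratio of 0.38. Their sum was 1466 FPKM in No-SCI and 2068 FPKM in SCI, and most of that difference was LYZ2, at 201 FPKM and 611 FPKM. Of the 10 listed mural markers 5 were higher and 5 lower, with a median log2 ratio of −0.0089, and their sum of 453 FPKM in No-SCI and 571 FPKM in SCI was mostly TAGLN (383 and 517 FPKM), which is also on the TGF-beta target list. Of the 7 oligodendrocyte precursor markers 3 were higher and 4 lower, with a median log2 ratio of −0.03. Of the 5 listed blood markers 2 were higher and 3 lower, with a median of −0.08. Skeletal muscle markers, which do not belong to the cord, summed to 438 FPKM in No-SCI and 47.8 FPKM in SCI. At least 2-fold lower were 9 of 10 (90%, against 12.1% of all entries). The part of these shifts in the values of the TGF-beta and BMP genes was not tested.

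**Figure D3:**
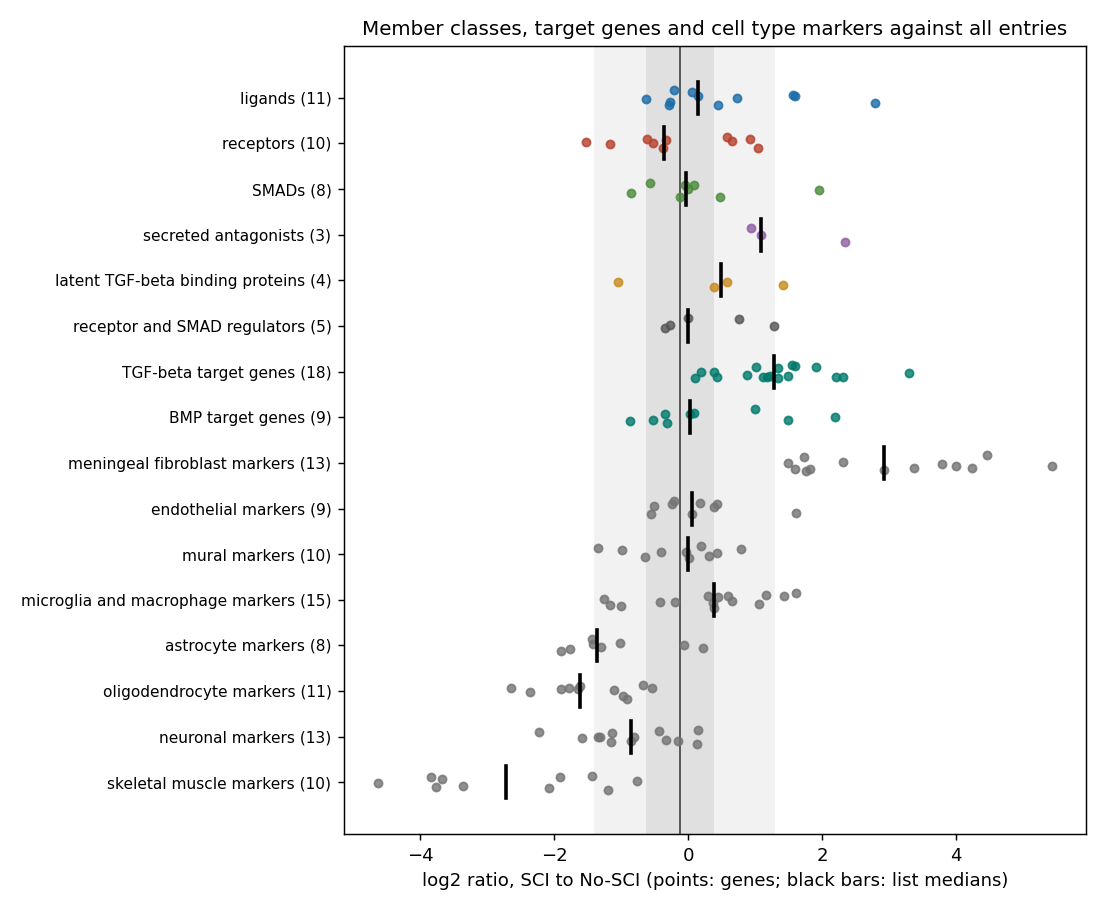
Log2 of SCI over No-SCI for the listed genes of each role, of the target gene lists and of cell type marker lists, with 1 point per gene, a black bar at the list median and the number of listed genes in brackets. Dark and light grey bands span percentiles 25 to 75 (−0.61 to 0.37) and 5 to 95 (−1.39 to 1.28) of all entries and the vertical line is their median. TGF-beta target genes (median 1.28) and meningeal fibroblast markers (2.93) lie to the right, and oligodendrocyte (−1.62) and skeletal muscle markers (−2.73) to the left.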

How the data were processed

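RNA of the spinal cord supernatant was sequenced after ribosomal RNA removal, in strand-specific total RNA libraries. Reads of every library were thinned by the authors to the depth of the shallowest one and mapped to rn6 (Ensembl annotation) with STAR 2.5.4b. The submitters' processing notes name Cuffdiff 1.3.0, and normalization was to the upper quartile. The deposited FPKM values are 1 estimate by the authors per group and gene. The number of reads behind each value is therefore unknown, and no count test or interval was possible. The columns with the authors' own fold changes, p-values, q-values and significance calls were not used, and 0 measurement columns lacked a group.

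Ratios of SCI over No-SCI were taken on the log2 scale with no constant added, and a gene counted as higher or lower from a 2-fold difference. For the 13 symbols with 2 entries the one with the larger mean was used. The members, lists and limits were chosen with earlier results of these data known. Every listed member is named. Of the other pathway genes, those past 2-fold with a larger value of at least 5 FPKM were open to naming, and of the marker lists the 3 most abundant and the absent ones. The alternatives were pseudocounts of 1 and 0.1, 1 subtracted, median centring, scaling to the upper quartile or the total, other fold limits, a mean of at least 5 FPKM, means for medians, and the entry with the smaller mean. Leaving out members with values of over 6 digits after 1 is subtracted, and target genes on marker lists, was added after the values were seen. Counting and centring were tested on simulated data. Names were matched to RefSeq of GRCr8, where all 49 symbols were found. Python 3.11.15, numpy 2.4.6, pandas 2.3.3 and matplotlib 3.10.9 were used.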

Additional observations from a re-analysis of the deposited data

How the results depend on the processing

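No replicate could be left out, since no value per library was analysed here, and the spread between animals limits every statement in an unknown way. No paired analysis was possible because the result comes from no test and the groups share no replicate number. The main counts were 9 members at least 2-fold higher and 3 lower. A limit of 1.3-fold gave 19 higher and 9 lower, and a limit of 3-fold gave 4 and 0. Shares of all entries at these limits, and under the pseudocount and filters below, were not computed. These counts are therefore not set against the whole table. A pseudocount of 1 left 1 lower member, and removed TGFBR1, ENG, FSTL3 and LTBP3 from the called genes. Keeping the 26 members with a mean of at least 5 FPKM left 5 higher and 1 lower, gave a receptor median of 0.58 over 7 genes and put the median of the binding proteins at −1.05, which is LTBP3 alone. This filter uses the SCI value too, by which ACVR1B dropped out and TGFBR2 passed, so the sign of that receptor median says nothing on stability. With 1 subtracted the median of the binding proteins was 1.21. Without the 24 members whose values carry over 6 digits after 1 is subtracted, a choice made after seeing the data, 5 higher and 0 lower remained among 17 genes. Of 246 ratios of single members under 6 alternatives of scale or constant, 239 moved by less than 1.5-fold, 7 by more, and 0 of the members past the 2-fold limit changed direction. The scalings brought ACVRL1 and NBL1 past 2-fold and took LTBP3 below it, except scaling to the same total, which changed neither. Under a scaling 3 members changed sign, SMAD2, SMAD7 and BAMBI.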

Other observations

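Other genes around the extracellular handling of these ligands were listed in both directions. LRRC32, also called GARP, a cell surface docking protein for latent TGF-beta, had 3.08 FPKM in No-SCI and 14.0 FPKM in SCI, and HTRA1, a secreted serine protease known to bind family members, had 8.35 FPKM and 36.5 FPKM. FBN1, the fibrillin to which binding proteins attach, had 3.48 FPKM in No-SCI and 9.47 FPKM in SCI, and BMP1, a protease that processes procollagen and cleaves the antagonist chordin, had 3.92 FPKM and 7.90 FPKM. In the other direction, VWC2, a secreted BMP antagonist of the nervous system, had 6.30 FPKM in No-SCI and 1.45 FPKM in SCI. ITGB8, the integrin subunit that activates latent TGF-beta, had 7.38 FPKM in No-SCI and 3.37 FPKM in SCI. These are 4 genes at least 2-fold higher and 2 at least 2-fold lower among 39 listed pathway genes that are neither members nor targets, or 10.3% and 5.13%, against 7.96% and 12.1% of all entries, so that the higher share was near that of the whole table. The 23 listed intracellular regulators outside the members, such as ubiquitin ligases and phosphatases of SMADs, all lay within 2-fold as deposited. With 1 subtracted 1 of these 23 was at least 2-fold higher and 1 at least 2-fold lower. Among all 39 genes the counts were then 6 and 6, while 10.4% and 16.2% of the entries were called.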
